A study of Oryza sativa with 6 samples.

Results

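The names of the plant miR394 family and the single miR384 name were followed in small RNA of germinating rice seeds kept at 25 °C or 35 °C. Every name with the stem mir394 or mir384 was taken, which gave 12 of the 641 names in the deposited table, 11 of miR394 and 1 of miR384. In all 6 libraries the 12 rows are copies or whole multiples of 1 row, so they hold 1 set of reads. The miR384 name was chosen by its counts, which equal those of the smallest miR394 row, so that sharing is a description. Higher values of this row at 35 °C were also known when it was chosen, so the comparison of the temperatures describes these libraries and is no independent test.

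Seeds of the cultivar Kasalath, an aus-type rice, germinated on damp tissue at 25 °C (normal, 3 libraries) or in an incubator at 35 °C (hot, 3 libraries). The growth protocol describes 40 seeds, 5 to a dish and 4 dishes at each temperature, kept damp to day 8, and the labels give an age of 5 days after germination. The normal dishes stood in the laboratory under a cardboard box and the hot dishes in the incubator, so temperature and place of growth cannot be told apart. No other treatment or allele is named, the series' design text calls the libraries biological triplicates, and the sources used here do not say which dishes or seeds went into which library. A table of miRNA names holds no transcript markers, so the tissue label was not checked.

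MicroRNAs guide Argonaute proteins to transcripts with a complementary site, and in plants the pairing is nearly complete and often leads to cleavage. The miR394 family is known from Arabidopsis to target the transcript of LEAF CURLING RESPONSIVENESS (LCR), an F-box protein of the kind that marks other proteins for degradation. There miR394 made in the outermost cell layer of the shoot apex moves inward and keeps the cells below competent to act as stem cells, and the pair also acts in leaf shape and in responses to abscisic acid, salt and drought. The name miR384 belongs to a mammalian family, and no role in rice is attached to it here. No sequence of either miRNA was used here, so which bases the shared reads hold was not examined.

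The smallest row of the set occurs under 6 names, mir384-5p, mir394c-5p, mir394d, mir394e, mir394f and mir394g. It held 4, 9 and 20 counts in normal libraries 1, 2 and 3, and at 35 °C it held 14, 59 and 76 counts in hot libraries 1, 2 and 3. Hot libraries 2 and 3 stood above all others, while hot library 1 lay below normal library 3. The other 6 names repeat that row. The name mir394c carries it 2 times, with 8, 18 and 40 against 28, 118 and 152 counts. The names mir394a-5p and mir394b-5p carry it 4 times, mir394 carries it 7 times, and mir394a and mir394b carry it 12 times, up to 912 counts in hot library 3. All 12 names therefore follow the same profile at 5 heights.

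**Figure D1:**
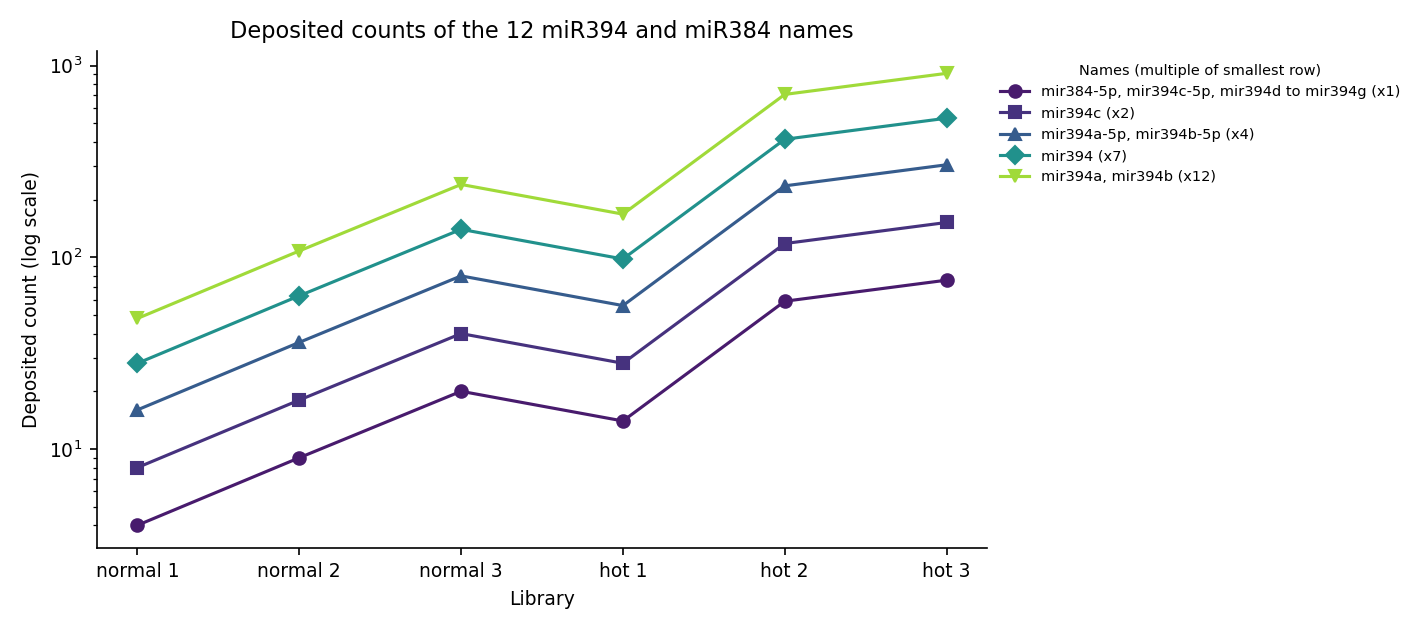
Deposited counts (log axis) of the 12 miR394 and miR384 names in the 6 libraries, with 1 line for each group of names that have identical counts; lines only join the values of a name. The 5 lines run parallel, from 4 to 76 counts in the smallest row and from 48 to 912 counts in mir394a and mir394b.

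Names with the 5p suffix (mir384-5p, mir394a-5p, mir394b-5p, mir394c-5p) and names without an arm held the same reads, and 0 of the 12 names carried a 3p suffix. The arm of the miR394 hairpin therefore could not be compared. The deposited normalised values follow the same pattern, since each is the multiple of the smallest row's value with a deviation of 0. Added over the 12 names the table holds 1551 counts at 25 °C and 7003 counts at 35 °C, which is 47 times the 33 and 149 counts of the smallest row. These entered counts were between 0.127% (normal library 1) and 0.946% (hot library 3) of a column sum.

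Sharing between families was found once in the table. By the rule used, it could be found only among the 212 read sets with at least 30 counts. Of 413 read sets, 77 held more than 1 name and 3 held more names than the miR394 set, but the miR394 and miR384 set was the 1 set with names of more than 1 family, by a rule that asks for at least 30 counts and counts above 0 in at least 4 libraries across families. The name mir384-5p was also the 1 name of the table in the number ranges taken here as mostly animal families. These ranges were set with miR384 known, and higher numbers were not searched for animal families, so this is a description.

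Depth differed between libraries and by the total used. Column sums ran from 136294 (normal library 2) to 377473 (hot library 3), and they include every repeat. The totals by which the authors divided to get the normalised values, called library totals here, ran from 157488 (hot library 1) to 275549 (normal library 3). What these totals count is not stated: they exceed the column sums in all 3 normal libraries and fall below them in all 3 hot libraries, so values scaled by them differ more between the temperatures than values scaled by column sums. The 3 libraries with the most miR394 counts (normal 3, hot 2, hot 3) were also the 3 with the highest column sums, so the raw counts cannot be compared without scaling.

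Scaled to 1000000 of the library total, the shared row stood at 15.1, 36.0 and 72.6 at 25 °C and at 88.9, 245 and 312 at 35 °C. All hot libraries were above all normal libraries on this scale, as were 40% of all read sets that passed the filter on low counts. The exact Poisson 95% intervals, which cover counting error only, were 44.3 to 112 for normal library 3 and 48.6 to 149 for hot library 1, so those neighbours were not separated. Hot libraries 2 and 3 had intervals of 187 to 317 and 246 to 390, above the upper bound of each normal library.

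TMM scaling, which sets libraries to a common level over most rows of the table, brought the groups closer. As counts per 1000000 after that scaling (CPM), the shared row had 30.9, 73.3 and 111 at 25 °C and 124, 243 and 253 at 35 °C. The groups did not overlap, as for 24.2% of read sets in the same direction, and hot library 1 exceeded normal library 3 by less than the counting error of either. Mean levels were 71.9 ± 40.3 CPM at 25 °C and 207 ± 71.7 CPM at 35 °C (SD, n = 3 each).

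Scaled to 1000000 of the column sum the groups overlapped. The shared row then had 27.0, 66.0 and 98.4 at 25 °C and 82.5, 179 and 201 at 35 °C, with hot library 1 below normal library 3. The difference of group means, tested by exact two-sided permutation, had p = 0.1 with CPM and with library totals, the smallest p that 3 against 3 libraries allow, and p = 0.2 with column sums. In bulk seed tissue a higher level in the same cells and more cells that make the miRNA cannot be told apart.

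**Figure D2:**
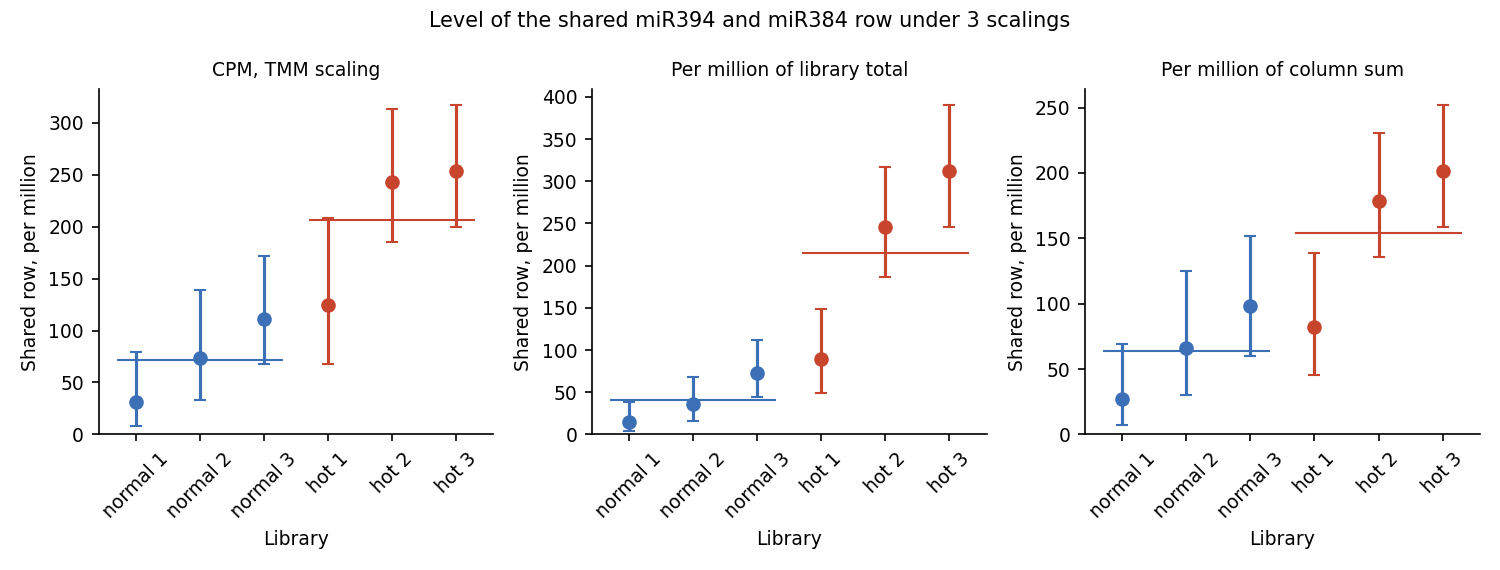
Level of the shared miR394 and miR384 row in each library (points, blue for 25 °C and red for 35 °C) with exact Poisson 95% intervals and group means (horizontal lines), per 1000000 under 3 scalings. Hot libraries 2 and 3 are highest in each panel, and hot library 1 (124 CPM, 88.9 and 82.5) lies near normal library 3 (111 CPM, 72.6 and 98.4).

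Sorted by count among the 413 read sets of a library, the shared row was between place 146 (normal library 3) and place 182 (normal library 1) at 25 °C, and at places 134, 104 and 100 in hot libraries 1, 2 and 3. Near-multiples of the same reads hold places of their own, so a place is not one among separate miRNAs. By place the groups did not overlap, as for 19.4% of read sets in the same direction. The number of sets with a count above 0 differed between libraries, from 274 to 331. As a share of those sets the row was 66.4%, 55.9% and 44.1% of the way down at 25 °C and 46.7%, 33.2% and 30.4% at 35 °C, so hot library 1 was above normal library 3 by place and below it by share.

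Pooled over the libraries of a temperature, 33 normal and 149 hot counts gave a TMM-scaled ratio of 2.97, and its 95% interval (exact binomial) ran from 2.03 to 4.48. With library totals the ratio was 5.56 (3.79 to 8.37) and with column sums 2.51 (1.71 to 3.78). These intervals leave out the spread between libraries, which was larger than counting error. Within a temperature the chi-square per degree of freedom of the TMM-scaled counts was 3.20 at 25 °C and 3.22 at 35 °C, where counting error alone gives about 1 and 2 degrees of freedom stand behind each value. With library totals it was 5.47 and 10.4. The highest normal library had 3.61 times the CPM of the lowest, and the highest hot library 2.04 times.

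A fit over the whole table with 1 row for each read set took that spread into account. In edgeR's quasi-likelihood test the shared row had a fitted value of 1.51 (log2 fold change, 35 °C over 25 °C, SE 0.51). Its unadjusted p was 0.0242 and its p after Benjamini-Hochberg adjustment over all rows was 0.0644 in that edgeR fit, so it was not called at the threshold of 0.05. Of these rows 31 were called higher, which is 18.8% of those tested, and 26 lower. All 31 were rows of miR156 or miR396, and many miR156 rows are near-multiples of one another. The share of 18.8% therefore counts these families repeatedly and is no share of separate miRNAs. The shared row ranked 9 by fitted change and 62 by p, and both ranks also count several rows of one family separately. Most rows above it by fitted change were rows of miR396. Its biological coefficient of variation, the fitted relative spread between libraries of a group, was 0.41 against a median of 0.24, and 36 rows had a larger one.

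**Figure D3:**
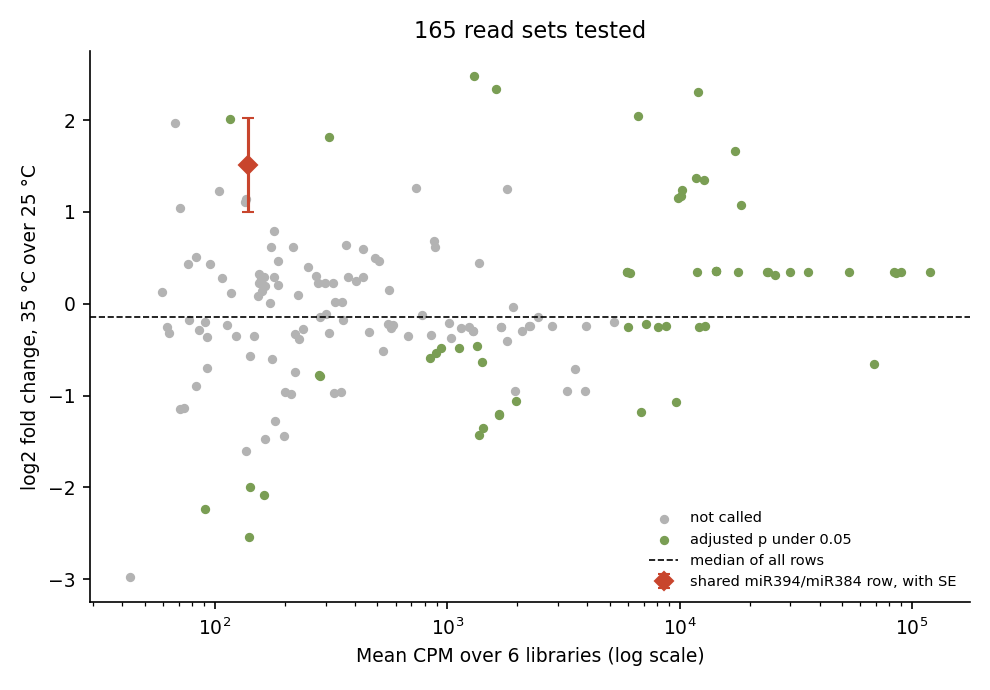
Log2 fold change at 35 °C over 25 °C against mean CPM over the 6 libraries (log axis) for the read sets tested, with rows past adjusted p 0.05 in green, others in grey and the shared miR394 and miR384 row in red with its SE. The shared row is at 1.51, while the median of all rows (dashed line) is at -0.14.

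Multiplied rows narrowed the fitted error without adding reads. When each of the 641 names was its own row, 253 were tested and the 12 names had fitted log2 fold changes of 1.43 to 1.45. The SE went from 0.52 for the rows at 1 time the reads to 0.47 for mir394a and mir394b at 12 times, and the adjusted p from 0.0873 to 0.0675. In edgeR's quasi-likelihood test 0 of the 12 names were called, against 7.11% of all names called higher, and all 12 had an unadjusted p under 0.05. These 12 values come from the same 182 reads and count as 1 result.

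Summed by family the same reads were past the threshold. With identical rows added once, the miR394 sum was 1.82 higher on the log2 scale (SE 0.56) and the miR384 row 1.80 higher (SE 0.56), and both had an adjusted p of 0.0437 by edgeR over 32 families. In that fit 7 families, or 21.9%, were called higher. With smallest rows only the miR394 sum had 1.77 (adjusted p of 0.0485 by edgeR over 31 families), beside 16.1% called higher. The family fits had TMM factors of their own and fewer tests, and the median of all families was 0.35 and 0.44.

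The scaling moved the size of the difference and the median of all rows together. The log2 fold change was 1.28 with column sums (edgeR adjusted p = 0.101, 7.88% of rows called higher), 1.68 with DESeq2 size factors (edgeR adjusted p = 0.055, 19.4%) and 2.38 with library totals (edgeR adjusted p = 0.0188, 26% of 173 rows). The median over all rows was -0.42, 0.00303 and 0.65 in these fits. Measured from that median, the shared row was 1.65 to 1.73 higher in all 4 scalings, TMM included. A scaling shifts all rows by much the same amount, so this narrow range is largely built in and is no added support. With family sums the value above the median was 1.48, or 1.33 over distinct read sets.

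Leaving out 1 library changed the call in 1 of 6 cases. Without hot library 1 the log2 fold change was 1.74 (edgeR adjusted p = 0.0361, 17.2% of rows called higher), and without normal library 3 it was 2.12 (edgeR adjusted p = 0.0567). The DESeq2 Wald test on all libraries gave 1.69 (adjusted p = 0.0292, 21.2% of rows called higher). Leaving out any of the other 4 libraries in edgeR gave 1.34 to 1.51, with an adjusted p between 0.104 and 0.187. The value was positive in all 17 alternatives and called in 6 of them.

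**Figure D4:**
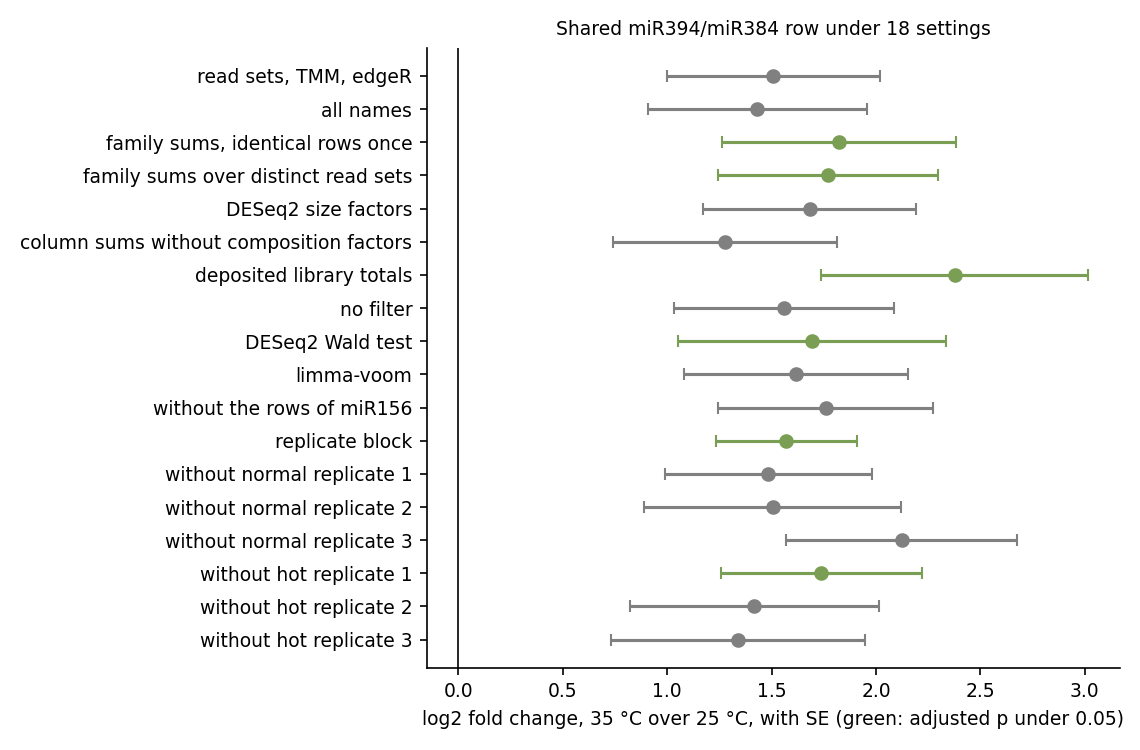
Fitted log2 fold change (points) and SE (bars) of the shared miR394 and miR384 row at 35 °C over 25 °C under each table, scaling, test and left-out library, green where the adjusted p was under 0.05. Values lie between 1.28 and 2.38, and 6 alternatives are green while the fit of read sets with TMM scaling is not.

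Of the other miRNAs with F-box targets, miR393, which targets the TIR1/AFB auxin receptors, had 3 read sets in the table, and no miR2111 name was analysed. The row mir393a nearly repeats mir393-5p, which holds 6 counts in all: its counts are 13 times those of mir393-5p in normal library 3 and hot libraries 1 and 3, and 14 times in hot library 2. As deposited, mir393a held 0, 0 and 13 counts at 25 °C and 13, 42 and 13 at 35 °C, with a fitted log2 difference of 1.97 (SE 1.19, edgeR adjusted p = 0.234), a value that rests on those few reads. The row mir393a-3p, with 1, 1 and 1 against 7, 26 and 13 counts, did not pass the filter, nor did mir393-5p. In this list of 4 read sets, miR394 included, 2 were tested and 0 were called, beside 18.8% of all rows called higher. The median log2 fold change was 1.74, set by the shared row and the multiplied mir393a row, beside -0.14 over all rows. At an unadjusted p under 0.05 the shared miR394 row passed and mir393a did not. With library totals 3 were tested and 2 were called higher, the shared row and mir393a-3p, beside 26% of all rows at that scaling. The median of all rows was 0.65 there. The row mir393a-3p passed the filter at that scaling only through its hot libraries, and the shared row also needed its hot libraries to pass. The shared row was moreover chosen with its higher values known, so these 2 calls are no support for a rise of the list.

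Among miRNAs known for roles at the shoot meristem (miR164, miR165, miR166, miR171, miR390 and miR394), the shared miR394 row had the highest fitted value. Of 85 read sets 46 were tested, 0 were called higher, beside 18.8% of all rows, and 6 lower (mir166a to mir166f, which guide cleavage of HD-ZIP III transcription factor transcripts), beside 15.8% of all rows called lower. The median was -0.25, against -0.14 over all rows. The 2 rows with the most counts, mir166a and mir166b, had log2 fold changes of -0.25 each (edgeR adjusted p = 0.0299 and 0.0262). With library totals these were 0.61 each, and none of the list was called lower. Of 48 tested 3 were called higher, mir166g-5p, mir166n-3p and the shared miR394 row, beside 26% of all rows called higher. The row mir166g-5p, with 3, 5 and 6 against 13, 11 and 18 counts, was not tested in the TMM fit. It passed the filter with library totals only through its hot libraries, so its call is no support for a rise. The 6 miR164 rows, whose family targets NAC transcripts, lay between 0.28 and 0.32, the 5 miR171 rows, whose family targets GRAS transcripts, between -1.60 and -0.74, and the 3 miR390 rows between -0.18 and 0.51, with none called. Many rows of one family hold largely the same reads, but not all do. The row mir390 held 10, 0 and 30 counts against 5, 26 and 20, while mir390-3p held 9, 10 and 10 against 9, 31 and 25.

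Over the 6 libraries the profile most like that of the shared row was mir1432-5p, with a Pearson correlation of 0.91 in log2 CPM against a median of -0.14 over all other rows. It held 4, 4 and 13 counts against 10, 25 and 29, or 45.3 ± 23.5 CPM at 25 °C and 96.1 ± 7.12 at 35 °C (SD, n = 3 each). Next came mir396d-5p, of the family that targets growth-regulating factors (r = 0.85), mir393a (r = 0.78, a near-multiple of the 6 counts of mir393-5p), and the near-identical rows mir444a and mir444b, of a monocot family with MADS-box targets (r = 0.77 and 0.76). Of these 5 only mir396d-5p was called, at 1.82 (SE 0.21, edgeR adjusted p = 0.00504). These correlations are a description over 6 libraries in 2 groups, and the rows of a library share its depth and scaling factor.

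**Figure D5:**
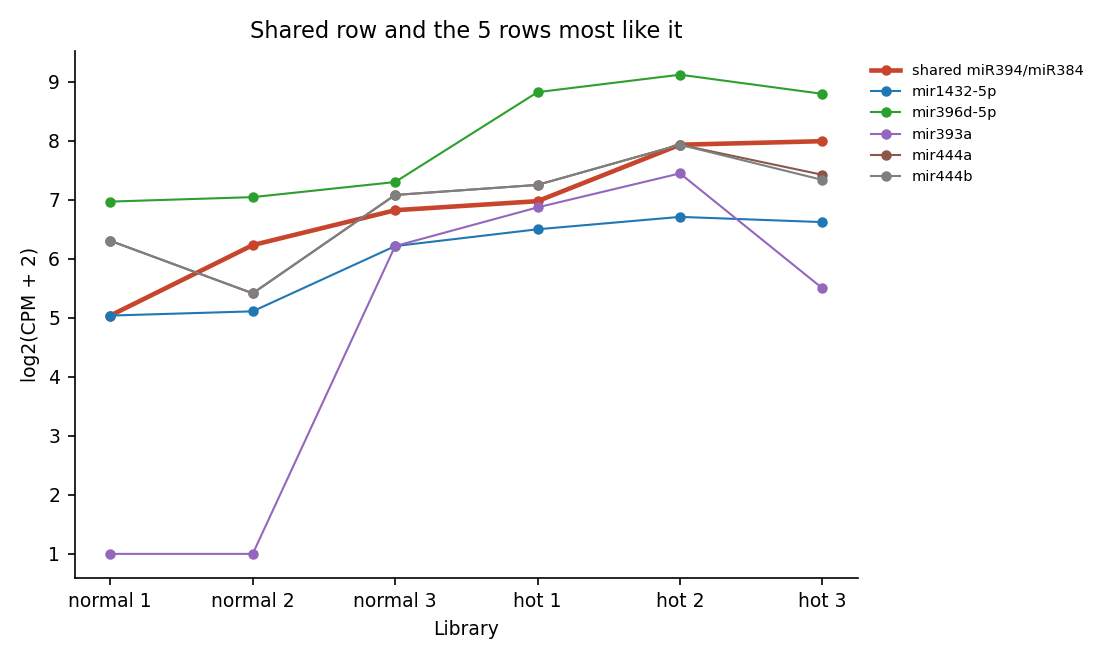
Level as log2(CPM + 2) in each library for the shared miR394 and miR384 row (thick red) and the 5 rows with the most similar profile; lines only join the values of a row. The shared row and mir1432-5p are both lowest in normal library 1 (30.9 CPM each), and mir396d-5p is the row with the widest gap between the normal and hot libraries relative to its spread.

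By mean CPM over all libraries the shared row was at rank 138, with 139 CPM, in an order where near-multiples count as separate rows. The neighbours above it were mir5504 (140 CPM) and mir166m-3p (141 CPM), and those below it mir444a and mir171d (136 CPM each), all within the spread between libraries. At nearly the same mean level the fitted values of these rows differed in direction, but only mir5504 was called (edgeR adjusted p = 0.00528). The rows mir166m-3p, mir444a and mir171d had an edgeR adjusted p of 0.208, 0.0951 and 0.222. The row mir5504 had 34, 36 and 29 counts against 6, 6 and 14 (log2 fold change -2.54), mir166m-3p had -0.56, mir444a had 1.13, and mir171d had -1.60, with 89 of its 146 counts in normal library 3.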

How the data were processed

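Small RNA isolation used a mirVana kit and library construction the NEBNext small RNA kit, with selection by size on AMPure beads, per the labels' protocols; sequencing was on a MiSeq. The deposited table gives, per the file headers, raw and normalised expression. Raw columns hold whole numbers in every library and were taken as the authors' counts per miRNA name. The deposited normalised columns, a signal in which each count is divided by 1 total per library and scaled to 1000000, were used to recover that total from counts above 20. The sources used here do not name the matching tool, the miRNA database or a genome build.

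Names whose counts were identical or exact whole multiples (tolerance 0) in all 6 libraries were reduced to their smallest row: within a family always, across families with at least 30 counts and 4 libraries above 0. Counts were fitted over the whole table with edgeR 4.0.16 in R 4.3.3 (filterByExpr with a minimum count of 10, TMM, quasi-likelihood test with temperature group alone). Rows under 0.05 after Benjamini-Hochberg adjustment were called, and the SE is the log2 fold change over the square root of F. Alternatives used DESeq2 1.42.0 and limma 3.58.1 (voom), other scalings and tables, a replicate block and left-out libraries. Likeness used log2 CPM with a prior count of 2. The scripts were tested on simulated counts.

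The members, lists and tests were chosen with earlier results of these data known. The text names all miR394 and miR384 names, the 5 rows most like the shared row, the 2 neighbours on each side in mean CPM and, in each list, the called rows and the 2 with the most counts; other rows named were chosen after their values were seen. Reads carry no stated molecular identifiers, so intervals cover counting error only. Between pairs of libraries at 1 temperature the chi-square per degree of freedom over read sets was 5.14 to 23.3. Near-multiples such as those of miR156 stayed in as separate rows and raise this value, so it does not measure the spread beyond counting error. The p-values set the difference between the temperatures against the spread between these libraries.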

Additional observations from a re-analysis of the deposited data

How the results depend on the processing

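The shared miR394 and miR384 row was not called in the fit of read sets (log2 fold change 1.51), and it was called, always higher at 35 °C, with family sums (1.82, or 1.77 over distinct read sets), library totals (2.38), the DESeq2 Wald test (1.69, adjusted p = 0.0292), the replicate block (1.57, adjusted p = 0.0213, edgeR's quasi-likelihood test) and without hot library 1. Leaving out 1 library each gave 1.34 to 2.12, and the adjusted p over all alternatives went from 0.0188 to 0.187. It was not called with all names, DESeq2 size factors, column sums, no filter, limma-voom or without miR156. The cause of these changes was not tested; the family fits changed the number of rows, the counts and the TMM factors together, and measured from the median of their rows the value was 1.48 and 1.33 there against 1.65. The number of rows called in the whole table was 57 (31 higher, 26 lower), and 11 or 9 with family sums, 20 without miR156 and 20 to 72 with 1 library left out. The split was 32 and 15 with DESeq2 size factors, 13 and 50 with column sums, 45 and 1 with library totals and 34 and 14 with no filter. With the replicate block the split was 34 and 18. Replicate numbers are shared between temperatures, but no label says that they pair the libraries, and the deviations of same-numbered libraries correlated at 0.41, -0.15 and -0.0023, so the block was not used to read the result. Only libraries numbered 1 correlated best with their own number. The scalings of the level by library, chosen after seeing the data, kept the hot mean higher. Depth limits the comparison: normal library 1 rests on 4 reads, with an exact Poisson 95% interval of 1.09 to 10.2.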
